A study of Homo sapiens with 4 samples.

Results

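The activator protein 1 (AP-1) subunits and the early growth response factor EGR1 were followed as a group of 10 genes: JUN, JUNB, JUND, FOS, FOSB, FOSL1, FOSL2, ATF3, BATF3 and EGR1. Members were taken as all probe sets of the deposited table annotated to only one gene, that gene being one of these. This gave 24 of the 54675 probe sets, covering all 10 genes of 19741 named genes; 0 further probe sets pointed to a member together with another gene. FOSL2 had 5 probe sets, JUN and JUND 4 each, ATF3 and EGR1 3 each, and the other genes 1.

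RNA came from 2 human lung adenocarcinoma lines, CL1-0 and CL1-5, the second known as a more invasive subline of the first. Both were stably transduced and kept under puromycin. CL1-5 carried either an shRNA against G9a or a control shRNA, and CL1-0 carried either HA-tagged G9a or a control vector, which makes 4 groups of 1 Affymetrix array each. G9a, encoded by EHMT2, is a methyltransferase of lysine 9 of histone H3, and the comparisons ask how these genes differ when it is reduced or added. The knockdown was 1 shRNA population and the overexpression 1 transduced population, so neither within-line difference has a replicate check and no p-value is given for it. Whether the serum or growth state of the cells was matched at harvest is not given in the sources used here.

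AP-1 is a family of dimers of basic leucine zipper (bZIP) proteins. JUN proteins pair with one another or with FOS proteins, FOS proteins need a JUN partner, and both kinds of dimer bind the TPA response element (TRE), with related dimers containing ATF proteins preferring the cyclic AMP response element (CRE). EGR1 is a zinc finger factor of a different family. FOS, FOSB, JUN, JUNB, ATF3 and EGR1 are classic immediate early genes, switched on within minutes by growth factors and stress. Their induction runs through MAP kinases, serum response factor (SRF) and CRE-binding proteins, and they are soon switched off again. JUND is expressed more steadily. In carcinoma cells FOSL1 and JUN are known for their link to invasion and to mesenchymal genes.

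The stretches just before the start sites are shown first because response elements lie there, which the rule that chose the members did not use. RefSeq windows (GRCh38.p14) were listed for 8 of the 10 members, 9 windows in all since ATF3 has 2 listed starts; FOSL1 and BATF3 were not listed. Each line below holds the 250 bases upstream of a start site, 5′ to 3′ on the gene's strand, with matches to the searched motifs in capitals. JUN lies at chr1:58784048-58784297 on the minus strand, JUND at chr19:18281623-18281872 on the minus strand, the upstream ATF3 start at chr1:212565157-212565406 and EGR1 at chr5:138465229-138465478, both on the plus strand.
JUN: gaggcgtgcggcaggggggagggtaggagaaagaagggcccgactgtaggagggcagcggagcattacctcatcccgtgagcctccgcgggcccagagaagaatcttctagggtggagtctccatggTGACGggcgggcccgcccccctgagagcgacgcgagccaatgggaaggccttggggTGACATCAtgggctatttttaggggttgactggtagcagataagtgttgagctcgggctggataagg
JUND: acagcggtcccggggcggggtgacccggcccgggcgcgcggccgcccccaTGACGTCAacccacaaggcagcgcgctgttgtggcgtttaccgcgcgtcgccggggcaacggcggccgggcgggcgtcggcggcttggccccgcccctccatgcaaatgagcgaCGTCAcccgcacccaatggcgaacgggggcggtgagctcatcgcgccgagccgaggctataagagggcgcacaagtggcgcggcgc
ATF3, upstream start: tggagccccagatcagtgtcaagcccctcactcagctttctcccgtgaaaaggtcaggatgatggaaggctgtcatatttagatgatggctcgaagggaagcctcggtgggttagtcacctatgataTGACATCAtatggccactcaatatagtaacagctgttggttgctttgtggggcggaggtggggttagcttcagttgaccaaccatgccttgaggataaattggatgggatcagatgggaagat
EGR1: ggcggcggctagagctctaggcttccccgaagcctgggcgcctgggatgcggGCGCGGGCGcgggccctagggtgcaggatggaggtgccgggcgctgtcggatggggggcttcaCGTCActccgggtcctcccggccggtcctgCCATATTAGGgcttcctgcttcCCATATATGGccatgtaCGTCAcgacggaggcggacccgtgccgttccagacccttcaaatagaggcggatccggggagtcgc

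Both strands were searched for the TRE TGACTCA, the CRE TGACGTCA, the TRE-like TGACATCA, the CRE half-site TGACG, the EGR site GCGNGGGCG and the CArG box, to which SRF binds. The half-site lies inside the CRE, so a CRE match also counts 2 half-sites. JUN held the TRE-like TGACATCA from -67 to -60, counted from the start site, and the upstream ATF3 window held it from -123 to -116. That octamer is in 2.37% of all 35116 listed windows. JUND alone among the 9 windows held a full CRE, from -200 to -193, against 1.65% of all windows. EGR1 had 2 CArG boxes, CCATATTAGG from -105 to -96 and CCATATATGG from -83 to -74; a CArG box is in 1.16% of all windows. It also had 1 EGR site, GCGCGGGCG, from -198 to -190, a motif in 8.41% of all windows. Half-sites were in 7 of the 9 member windows against 21.2% of all windows, among them FOS from -64 to -60 and FOSB from -60 to -56. The TRE itself, in 4.20% of all windows, was in 0 of the 9. These are letter matches and were not tested for binding.

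**Figure D1:**
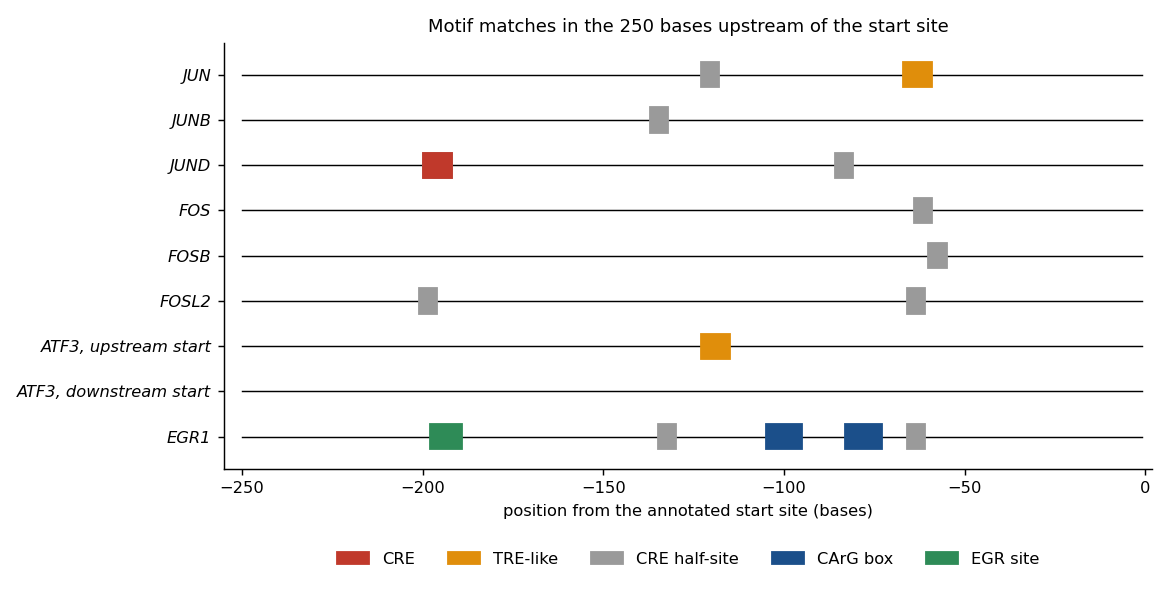
Motif matches in the 250 bases upstream of 9 start sites of 8 member genes, with the position from the start site in bases on the horizontal axis and 1 line per window. EGR1 carries the 2 CArG boxes, JUND the CRE (which covers 2 half-sites), and JUN and the upstream ATF3 window the TRE-like octamer.

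The 4 arrays were comparable but not level, with median signals of 11.3, 14.9, 11.7 and 12.3 for the CL1-5 control, the knockdown, the vector and HA-G9a. Signals below are MAS5 intensities as deposited, and a ratio called relative has the median log2 ratio of the genes past the filter subtracted, 0.42 for the knockdown and -0.08 for HA-G9a. A gene was past the filter where the brighter array of a pair read at least 12.5, the median of all values. The targeted gene followed the labels, with EHMT2 at 376 and 28.1 in CL1-5 and at 420 and 862 in CL1-0. The labels give the type II alveolar cell as the basis of the carcinoma. Of 8 type II markers with a probe set, 5, 5, 4 and 3 reached 12.5 on the arrays in the same order. On any array 0 of the 8 reached 84.2, the 75th percentile of all values. Probe sets of 1 gene differed in their log2 ratios by a pooled SD of 0.54 between control and knockdown and 0.51 between vector and HA-G9a (0.30 and 0.25 where a signal reached 84.2).

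**Figure D2:**
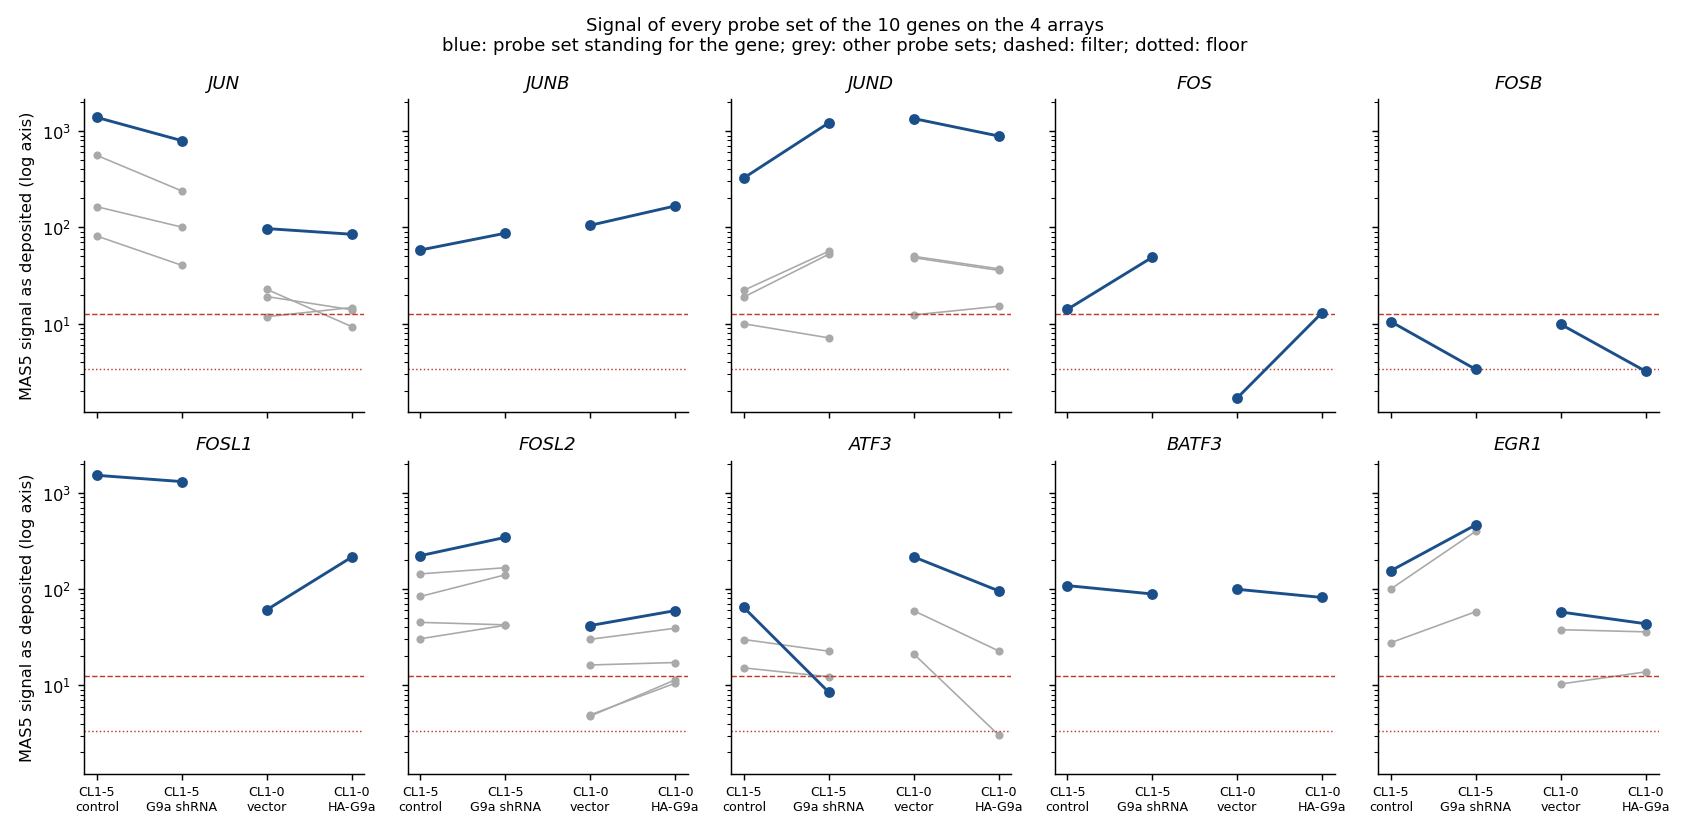
MAS5 signal as deposited (log axis) of all 24 member probe sets on the 4 arrays, 1 panel per gene, with lines joining the 2 arrays of a line and dashed and dotted lines at 12.5 (filter) and 3.35 (floor). JUN and FOSL1 are high on both CL1-5 arrays and low on both CL1-0 arrays, the brightest JUND probe set is lowest on the CL1-5 control array, and FOSB stays under the filter on all 4.

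After the G9a knockdown in CL1-5, the member genes differed in direction. JUND, FOS and EGR1 were at least 2-fold higher relative to the median gene, and JUN and ATF3 at least 2-fold lower. That is 3 of 9 members past the filter higher, against 8.13% of 13045 genes, and 2 lower, against 7.76%. Those shares are 1060 genes higher and 1012 lower; without the median shift they were 2198 and 618. The remaining 4, JUNB, FOSL1, FOSL2 and BATF3, were within 2-fold. The median of the 9 was 0.16, and the range ran from -3.35 to 1.48.

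JUN, the subunit that gives AP-1 its name and a strong activator in dimers with FOS proteins, read 1389 with the control shRNA and 797 with the G9a shRNA by its brightest probe set. The 3 other probe sets read 560 and 239, 164 and 101, and 81.3 and 40.4. All 4 were thus dimmer after the knockdown, with relative log2 ratios of -1.22, -1.65, -1.12 and -1.43 and an SD of 0.23 between them. The brightest is of type x_at, a design that can share sequence with other genes. The ratio of the deposited signals without the shift was -0.80, within 2-fold.

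JUND, the constitutive JUN protein that is often antiproliferative, went the other way. Its brightest probe set read 326 in the control and 1222 after the knockdown, against 1351 and 889 on the vector and HA-G9a arrays. The knockdown array therefore read within the range of the CL1-0 arrays, while the CL1-5 control stood below the other 3 arrays. A pair of dimmer x_at probe sets gave 22.2 and 56.5, and 18.9 and 52.6. Relative log2 ratios of the 3 were 1.48, 0.93 and 1.06, and the remaining JUND probe set was under the filter in CL1-5 at 9.96 and 7.11. JUNB, an immediate early JUN protein that can restrain JUN, read 58.2 and 86.9, a relative ratio of 0.16.

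Among the FOS proteins only FOS passed 2-fold, at low signal. FOS, the labile activating partner of JUN, read 14.0 in the control and 48.9 after the knockdown, a relative log2 ratio of 1.38 from 1 probe set. FOSL1 encodes FRA-1, a FOS protein without the strong activation domain of FOS. It was bright on both arrays, at 1518 and 1307, a relative ratio of -0.64. FOSL2, which encodes the related FRA-2, read 222 and 344 with its brightest probe set, and its 5 probe sets had relative ratios from -0.50 to 0.33. FOSB read 10.5 and 3.34, under the filter, and gives no ratio here.

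ATF3, a stress-induced repressor that pairs with JUN proteins, had the largest ratio of the members by its brightest probe set but not by the others. That probe set read 64.2 in the control and 8.45 after the knockdown, a relative log2 ratio of -3.35, and 1.03% of genes past the filter had a ratio as large in either direction. The others read 29.9 and 22.6, and 15.1 and 12.2, relative ratios of -0.82 and -0.73. All 3 were dimmer, yet their SD was 1.49, and the median over the 3 was -0.83, within 2-fold. BATF3, a bZIP protein known from dendritic cells, lies next to ATF3 on chromosome 1 with 1 protein-coding gene between them. It read 108 and 88.7, a relative ratio of -0.71.

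EGR1 was brighter after the knockdown with each of its probe sets. They read 155 and 464, 100.1 and 399, and 27.7 and 58.1 in the control and the knockdown. The relative log2 ratios were 1.16, 1.57 and 0.65, so 2 of the 3 passed 2-fold. SRF, whose product binds CArG boxes such as the pair printed for EGR1, read 158 and 309, a relative ratio of 0.54.

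**Figure D3:**
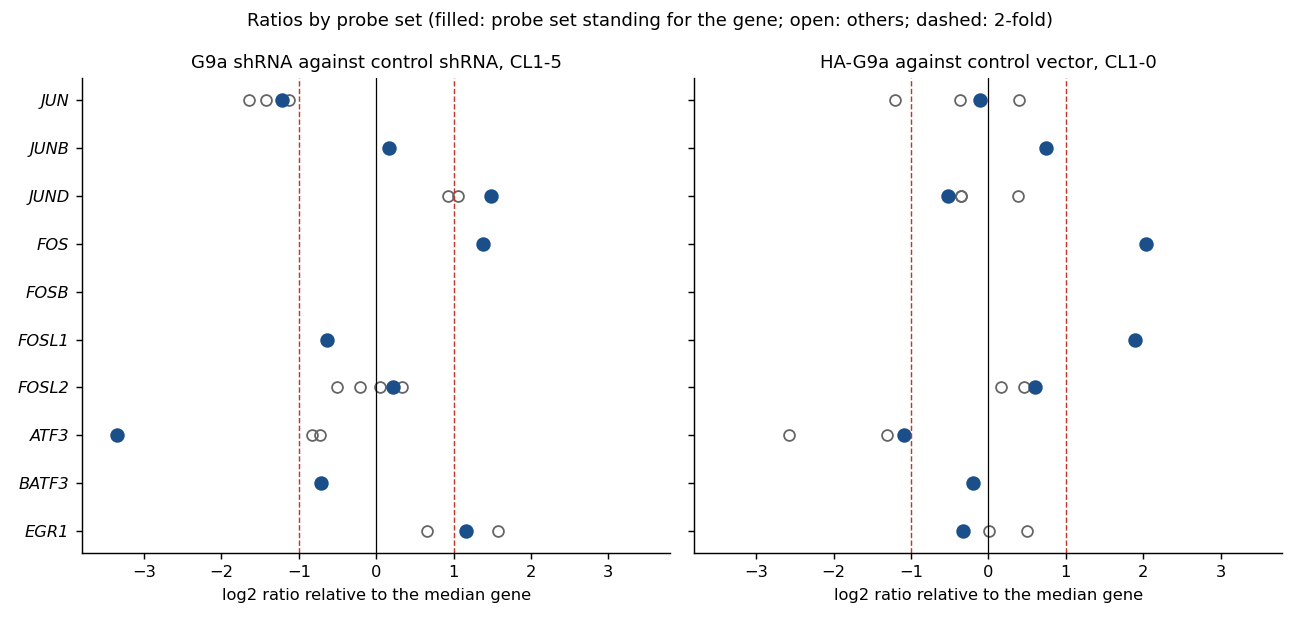
Log2 ratios relative to the median gene for each member probe set past the filter, G9a shRNA against control shRNA on the left and HA-G9a against vector on the right, with the probe set standing for the gene filled and dashed lines at 2-fold. In the left panel the 4 JUN probe sets lie between -1.65 and -1.12 and the 3 JUND ones between 0.93 and 1.48. In the right panel FOS and FOSL1 are highest at 2.04 and 1.90, and an ATF3 probe set is lowest at -2.57. The FOS point and that ATF3 point each have 1 array under the floor.

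With HA-G9a in CL1-0, FOSL1 and FOS were at least 2-fold higher relative to the median gene and ATF3 at least 2-fold lower, 2 and 1 of 9 members past the filter. Over all 12791 genes the shares were 5.46% higher and 3.74% lower, or 699 and 479 genes, and 555 and 704 after median scaling of the arrays. The other 6 members were within 2-fold, and the median of the 9 was -0.11.

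FOSL1 gave a signal of 60.8 in vector cells and 214 in HA-G9a cells, a relative log2 ratio of 1.90 from its single probe set; 2.87% of genes had a ratio as large. Even so, both CL1-5 arrays, at 1518 and 1307, were brighter than the HA-G9a array. FOS read 1.69 with the vector, under the floor of 3.35, and 13.04 with HA-G9a, barely past the filter. Its relative ratio of 2.04 rests on the floor, and with the floor at the median of all values it was 0.14. FOSL2 read 41.7 and 59.6, with relative ratios of 0.17 to 0.60 for the 3 probe sets past the filter.

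ATF3 was dimmer with HA-G9a by all of its probe sets, at 215 and 95.6, 59.4 and 22.7, and 21.1 and 3.03 with the vector and HA-G9a. Relative log2 ratios were -1.09, -1.31 and -2.57, the last with the dimmer array under the floor. On both arrays with altered G9a, ATF3 was dimmer than on the control array of the same line. JUNB read 105 and 167, a relative ratio of 0.75, and JUND 1351 and 889, a ratio of -0.52, with its other probe sets from -0.35 to 0.38. JUN stayed low, at 97.2 and 84.8, and its 4 probe sets ran from -1.20 to 0.40. EGR1 read 57.7 and 43.5, with ratios from -0.32 to 0.50 over 3 probe sets, and BATF3 99.3 and 81.6, a ratio of -0.20. FOSB, at 9.83 and 3.19, was again under the filter.

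Between the lines, most members that stood apart were higher in CL1-5. On the control arrays alone, 5 of 9 members were at least 2-fold higher in CL1-5 relative to the median gene (JUN, FOS, FOSL1, FOSL2 and EGR1), against 12.6% of 12925 genes, and 2 lower (JUND and ATF3), against 13.2%. FOSL1 had the largest relative log2 ratio at 4.66, followed by JUN at 3.85, FOSL2 at 2.43, FOS at 2.08 and EGR1 at 1.44. Every probe set of JUN, FOSL2 and EGR1 pointed the same way, from 2.80 to 4.89 for JUN and from 2.27 to 3.21 for FOSL2, while those of EGR1 had an SD of 0.011. JUND stood at -2.04 and ATF3 at -1.73, or -1.36 and -0.99 as medians of their probe sets. FOS read 14.0 in the CL1-5 control and 1.69 with the vector, under the floor, so it passed the filter only through the CL1-5 array. With the floor at the median of all values, FOS gave 0.18 and 4 members were at least 2-fold higher.

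With both arrays of each line in one limma fit across 13953 genes, JUN and FOSL2 were called at a Benjamini-Hochberg adjusted p below 0.05. Both were higher in CL1-5, as were 1.43% of all genes by this test, with 1.48% lower. Signals were not shifted in this fit, and the median gene differed by 0.23. JUN differed by 3.53 on the log2 scale (SE 0.39, 95% interval 2.52 to 4.55, limma adjusted p = 0.024), and FOSL2 by 2.47 (SE 0.39, 1.46 to 3.48, limma adjusted p = 0.0497). FOSL1 differed by 3.62 (SE 0.65, 1.96 to 5.29) but missed the threshold (limma adjusted p = 0.063), its CL1-0 arrays being 60.8 and 214. EGR1 differed by 2.42 (SE 0.59, 0.90 to 3.94, limma adjusted p = 0.12). ATF3 gave -2.62 (SE 1.04, -5.28 to 0.03, limma adjusted p = 0.25). This value was -1.16 without the knockdown array and -4.08 without the CL1-5 control, and the other ATF3 probe sets gave -0.50 and 0.69.

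JUNB and JUND gave differences of -0.90 and -0.80 with intervals spanning 0 (JUND 0.16 without the CL1-5 control array), FOS gave 1.99 (1.01 without the vector array, 1.09 without the knockdown array) and BATF3 0.12. The 2 CL1-5 arrays did not overlap the 2 CL1-0 arrays for 7 of the 9 members tested, all but JUND and BATF3, against 54.3% of all genes. Each line contributed 1 control and 1 altered population, so the spread in the fit includes the effect of changing G9a. With quantile normalization neither call held, at limma adjusted p = 0.063 for JUN and 0.058 for FOSL2, nor with no filter, at 0.12 and 0.16. FOSL2 alone also missed it with G9a level as a further term (limma adjusted p = 0.080), with the floor at the median (0.060) and with each probe set tested on its own (0.054 for the brightest, 0.044 for another). FOSL1 was called with the filter at the 75th percentile (limma adjusted p = 0.029). Leaving out any 1 of the 4 arrays ended both calls as well, as it left 0 calls among all genes; the differences without the CL1-5 control, knockdown, vector or HA-G9a array were 3.13, 3.94, 3.63 and 3.44 for JUN and 2.79, 2.15, 2.21 and 2.73 for FOSL2.

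**Figure D4:**
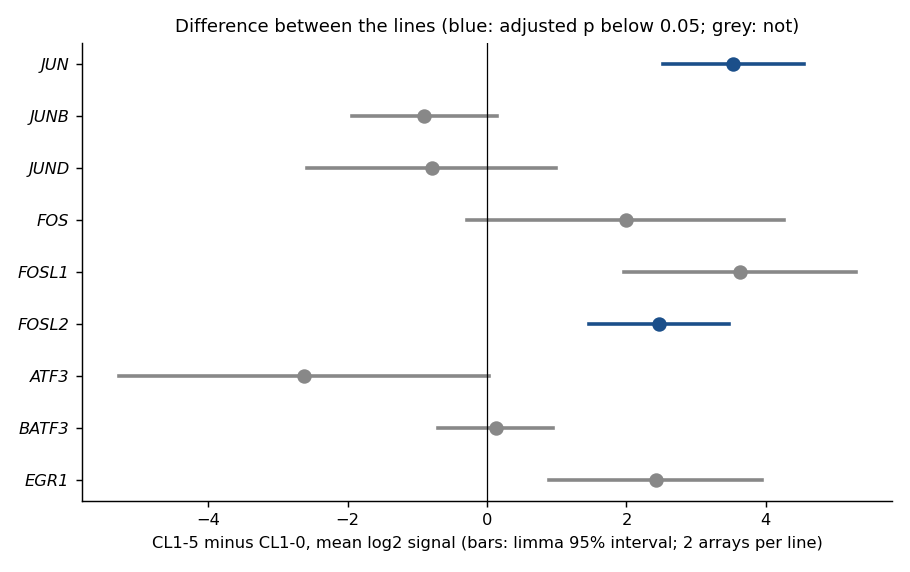
Difference between the lines in mean log2 signal, CL1-5 minus CL1-0, for the 9 members past the filter, with limma 95% intervals from 2 arrays per line. The intervals of JUN, FOSL1, FOSL2 and EGR1 lie above 0, and JUN and FOSL2 (blue) have an adjusted p below 0.05.

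A second limma fit with line and G9a level as terms set the CL1-5 control and HA-G9a arrays, which have more G9a in their line, against the other 2. It called 0 members and 0 of 13953 genes after adjustment, while 691 genes (4.95%) had an unadjusted p below 0.05, with 1 residual degree of freedom. JUND had the lowest p of the members, with a difference of -1.25 (interval -2.48 to -0.03, limma adjusted p = 0.83; unadjusted 0.047). EGR1 gave -0.995 (-2.17 to 0.18) and FOSL1 1.02 (-0.35 to 2.38), both at a limma adjusted p of 0.83. Signals were again not shifted, and the median gene differed by -0.24 in this contrast. With the arrays scaled to one median, JUND gave -1.09, EGR1 -0.83 and FOSL1 1.18. For ATF3 and FOS the 2 lines pointed in opposite directions under this contrast, past 2-fold in both. Their fitted differences were 0.88 (-1.92 to 3.67) and 0.08 (-2.51 to 2.66). JUN, JUNB, FOSL2 and BATF3 also had opposite signs in the 2 lines, but were not past 2-fold in both.

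For the 8 members that reached 84.2 on any array, so not FOS or FOSB, nearest genes in profile were taken as the genes with the smallest distance between mean-centred log2 signals over the 4 arrays. Among 8883 genes compared, the nearest to JUN was DTX3L, at 350, 232, 31.5 and 23.1 in the order CL1-5 control, knockdown, vector and HA-G9a (distance 0.27). FOSL1 was closest to SP100 and KLF4, the latter an immediate early factor that read 1111, 1278, 47.2 and 155. ATF3 had few neighbours: only GXYLT2 lay within 0.5, followed by JDP2, a bZIP repressor of AP-1, at 33.7, 7.44, 102 and 71.0 (distance 0.73). JUND was closest to ZNF33A, at 34.5, 122, 131 and 91.0, and EGR1 to TSHZ1 and MT1G. FOSL2 was nearest to PARP12, and JUNB to ZNF503. BATF3, nearly flat, had 1478 genes within 0.5, RRP1B nearest. With only 4 points many genes share a profile, and these distances are a description.

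Genes around AP-1 were described from 5 lists, by counts past 2-fold relative to the median gene, where all genes gave 8.13% higher and 7.76% lower after the knockdown and 5.46% and 3.74% with HA-G9a. Without the median shift, 2198 of 13045 genes were higher and 618 lower after the knockdown. Of 19 bZIP relatives past the filter in CL1-5, 0 were higher and 2 lower after the knockdown (median -0.02), or 2 and 1 unshifted. These were JDP2 (-2.60) and CREB1, a CRE-binding activator, at 398 and 229 (-1.21), with all 7 of its probe sets of one sign. CEBPD, an acute-phase factor, had a relative log2 ratio of 0.91. With HA-G9a 0 of 20 were higher and 1 lower (median -0.27), namely DDIT3, which encodes the stress factor CHOP, at 300.0 with the vector and 89.2 with HA-G9a (-1.67).

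The list of the EGR family and its NAB corepressors also held WT1, SP1 and SP3. Its 6 genes past the filter were EGR4, NAB1, NAB2, WT1, SP1 and SP3, so EGR4 was the only EGR gene among them. Of the 6, 0 were past 2-fold in either comparison, with medians of 0.01 and 0.08. NAB1, a corepressor of EGR1, read 262 and 512 in CL1-5 (0.55), and NAB2, itself an EGR1 target and corepressor, 56.3 and 62.2 (-0.28). The MAP kinase and SRF pathway had 0 of 18 past 2-fold in either comparison (medians 0.07 and 0.00), but 1 higher after the knockdown without the median shift. That was ELK1, a cofactor of SRF, at 174 and 428, a relative ratio of 0.88 and 1.30 unshifted. The nearest with HA-G9a was RPS6KA3, a kinase downstream of ERK, at 274 and 503 (0.96).

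Of 30 other immediate early genes, 8 were lower and 1 higher after the knockdown (median -0.19). Without the median shift the counts were 5 lower and 5 higher, against 618 and 2198 of 13045 genes. HBEGF, an EGF receptor ligand, read 1587 and 223 (-3.25) and DUSP1, a MAP kinase phosphatase, 1336 and 273 (-2.71). EREG, another EGF receptor ligand, was the one higher with the shift, at 1.46 and 32.3, the control being under the floor. With HA-G9a 8 of 30 were higher and 0 lower (median 0.39), led by SGK1, a serum-induced kinase, at 24.7 and 111 (2.25), PHLDA1 at 136 and 564 (2.14) and KLF4 at 47.2 and 155 (1.80).

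Of genes known as AP-1 or EGR1 targets, 7 of 22 were lower and 0 higher after the knockdown (median -0.50), or 4 and 1 without the median shift. With HA-G9a 9 of 22 were higher and 1 lower (median 0.71). The collagenase gene MMP1 read 424 and 16.8 in CL1-5, a relative log2 ratio of -5.08, and 3.98 and 27.3 in CL1-0, a ratio of 2.86. CD44, the hyaluronan receptor, had ratios of -1.70 and 3.44, PLAU, the urokinase gene, -0.15 and 3.16, and CXCL8, the interleukin-8 gene, -0.34 and 3.11. The vector signals of MMP1 and CXCL8, 3.98 and 4.46, were close to the floor. In CL1-0 both genes passed the filter only through the HA-G9a array. TGFB1, known as an EGR1 target, had -2.37 and 0.04. On the control arrays, where all genes gave 12.6% higher in CL1-5 and 13.2% lower, 11 of 22 targets were higher and 1 lower (median 1.25). Among them CXCL8 was at 8.52, with the same vector signal of 4.46, and F3, the tissue factor gene, at 6.42. For the immediate early list that comparison gave 15 of 30 higher and 6 lower (median 0.94), with the ERK phosphatase gene DUSP5 at 1658 and 30.9 (5.76). The bZIP relatives gave 2 of 20 higher and 3 lower. The EGR and NAB list gave 1 and 1 of 6, and the MAP kinase and SRF pathway 2 and 1 of 18.

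**Figure D5:**
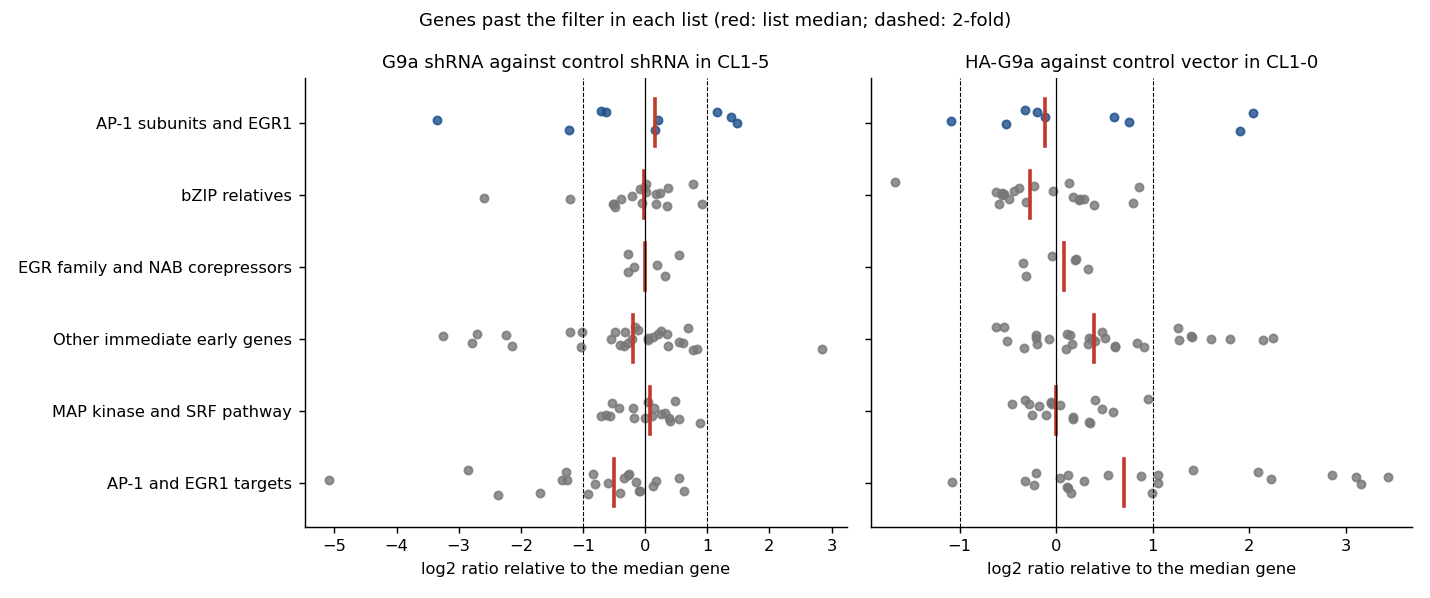
Log2 ratios relative to the median gene for genes past the filter in each list, knockdown on the left and HA-G9a on the right, 1 point per gene, with red bars at the list medians and dashed lines at 2-fold. The AP-1 and EGR1 targets have medians of -0.50 and 0.71, and the 9 members 0.16 and -0.11.

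Markers of other cell types moved with some of these comparisons. Of 6 endothelial markers, 4 were at or above 12.5 with the control shRNA and 1 with the G9a shRNA, with summed signals of 483 and 103; VWF and TEK were under the floor on both. Epithelial markers at or above 12.5 went from 3 to 5 of 6, with CDH1 at 2.36 and 77.6 but summed signals of 3745 and 2988, and fibroblast markers from 0 to 2 of 5, summed 29.7 and 71.9. On both CL1-0 arrays 5 epithelial markers were at or above 12.5, with summed signals of 684 for the vector and 2360 for HA-G9a, most of it KRT18, and KRT19 under the floor. Between the control arrays the sums were 3745 in CL1-5 against 684 for epithelial and 483 against 44.6 for endothelial markers. KRT18 (2945 and 545) and KRT8 (757 and 67.1) made up most of the epithelial sums. CDH1 (2.36 and 14.9) and EPCAM (6.06 and 24.6) were lower in CL1-5, where 3 epithelial markers reached 12.5 against 5. For leukocyte markers, the counts at or above 12.5 were 1, 3, 2 and 0 of 5 for CL1-5 control, knockdown, vector and HA-G9a. On any array, 0 of the leukocyte and 0 of the fibroblast markers reached 84.2. PTPRC read between 2.59 and 4.17. The part of these differences in the values of the members was not tested. In bulk RNA fewer cells with a transcript and less transcript per cell cannot be told apart.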

How the data were processed

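Gene expression was measured in 4 RNA samples, 1 Affymetrix array each. The deposited values are linear signal intensities, 1 per probe set, made with MAS5 per the submitters' processing notes; the sources used here give neither its settings nor present calls. Precision is limited by having 4 arrays.

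Probe sets were named from the platform annotation table, with symbols updated by Entrez identifier against RefSeq (GRCh38.p14); 41043 of 41097 single-symbol probe sets matched. The 1801 probe sets with several symbols and 11777 without one named no gene, and 58 of sex-linked transcripts were left out. The probe set with the highest mean over the 4 arrays stood for a gene. Signals were set to a floor of 3.35 (25th percentile over all arrays) and log2-transformed, and filtered at 12.5 on the brighter array (any array for limma). Ratios between single arrays used a fixed 2-fold and no test. Lines were compared with limma 3.58.1 (R 4.3.3; lmFit, eBayes; Benjamini-Hochberg), with 2 residual degrees of freedom; this step was tested on simulated data. Nothing says how many cultures lay behind an array, so p-values measure only the spread between these arrays. All else was run in Python 3.11.15 (NumPy 2.4.6, pandas 2.3.3, SciPy 1.17.1, matplotlib 3.10.9).

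The members, the related lists and all tests were chosen with earlier results of these data known. All members are named; of each related list up to 4 genes with the largest ratio per comparison could be named, plus DUSP1, HBEGF, NAB2, SRF and EHMT2, and the 3 nearest genes in profile per member past the 75th percentile. Alternatives covered scaling, floor, filter, probe set choice, model terms and leaving out each array.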

Additional observations from a re-analysis of the deposited data

Results flagged for a closer look

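ATF3 and FOS were singled out because the difference between the array with more and the array with less G9a had opposite signs in the 2 lines, past 2-fold in both by the brightest probe set. For ATF3 the relative log2 ratio of more against less G9a was 3.35 in CL1-5 and -1.09 in CL1-0. As the median over probe sets, its knockdown ratio was -0.83, within 2-fold. For FOS it was -1.38 in CL1-5 and 2.04 in CL1-0, where the vector signal was under the floor and FOS passed the filter only through the HA-G9a array. With the floor at the median of all values its HA-G9a ratio was 0.14, so neither gene was past 2-fold in both lines under every alternative. The difference between the lines was not tested, as each arm had 1 array, and the cause was not tested.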

How the results depend on the processing

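The members' single-array ratios past 2-fold kept their direction under each alternative that gave a value, 7 for most, and 6 for FOS and for ATF3 after the knockdown, which the 75th percentile filter left out. For the knockdown, members lower numbered 2, but 1 without the median shift, with the filter at the 75th percentile, and as medians over probe sets. For HA-G9a, members higher numbered 2, but 1 with the floor at the median of all values and with the stricter filter, and members lower were 2 with no filter. On the control arrays, members lower became 1 as medians over probe sets. Related genes past 2-fold were counted over all 5 lists together. After the knockdown 1 was higher and 17 lower. Without the shift they were 9 and 10, against 2198 and 618 of 13045 genes. The stricter filter gave 0 higher and no filter 3 higher. With HA-G9a 17 were higher and 2 lower, but 1 lower with the floor at the median, and 7 higher and 1 lower with the stricter filter. In the line fit, 2 members and 406 genes were called; no filter gave 0 and 17, line and G9a level as terms 1 and 254, quantile normalization 0 members, a floor at the median 1 member (JUN), and the 75th percentile filter 3 (FOSL1 added). Line and G9a level left JUN, and each probe set tested on its own ended the call of the brightest FOSL2 probe set. Leaving out 1 array gave 0 members and 0 genes each time (1275 to 4190 genes at an unadjusted p below 0.05). No replicate block was fitted, as the labels give no replicate numbers; the fit with line and G9a level as terms already compares arrays within a line. Dim members (FOS, FOSB, the lesser ATF3 probe sets) sit near background, where signals are noisy. The brightest ATF3 probe set also read only 8.45 on the knockdown array. With the floor at the median of all values, its knockdown ratio was -2.73.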
